A study of Mus musculus with 2 samples.

Results

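The 9 genes described here, of 32285 genes counted, encode the receptors and ligands by which shed photoreceptor outer segments are bound and taken up: the receptor tyrosine kinases Mertk, Tyro3 and Axl, their ligands Gas6 and Pros1, the bridging protein Mfge8, the integrin subunits Itgav and Itgb5 and the scavenger receptor Cd36. They were chosen by name for this role, not by a rule on measured values, although earlier results of these data were known. They were followed in retinal pigment epithelium (RPE), Müller glia, microglia and rods. The study compared retinae of dark-adapted mice with retinae after light damage by droplet-based single-cell RNA sequencing of 3′ ends. One library was made from each condition, each from pooled retinae of 3 to 5 mice, so there is no replicate and no test between conditions.

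Both pools are labelled WT. According to the study's methods the mice carried floxed alleles of Tgfbr2 without a stated Cre, were of a Balb-C/CD1 background and carried the L450 variant of RPE65 in homozygous form. Mice of both sexes, 6 to 9 weeks old, spent 18 h in darkness. Control mice received no bright light, whereas light damage mice were exposed to white light of 5000 lx for 30 min and recovered in dim light for 6 h. Whole retinae were dissociated and dead cells were removed with magnetic beads, so the RPE cells are those that stayed with the isolated retina.

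RPE cells engulf the tips that photoreceptors shed every day. The integrin αvβ5, built from the products of Itgav and Itgb5, binds the shed membrane through MFGE8, a secreted protein that recognises exposed phosphatidylserine, and MERTK then triggers its internalisation after GAS6 or protein S (Pros1) has bridged it to the same lipid. AXL and TYRO3 are the relatives of MERTK, microglia use the same receptors to clear dying cells, and CD36 is a scavenger receptor for oxidised lipids that is known to affect the speed of uptake.

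A droplet was assigned to a class by the marker genes of its cluster, with the 9 genes left out of the clustering. The 10 RPE markers were detected in at least 10% of RPE-like droplets for 9 genes in each library, the exception being Best1, and all 10 markers of Müller glia and of microglia were detected in their classes. The control and light damage libraries held 159 and 294 RPE-like, 40 and 26 Müller-like, 12 and 40 microglia-like droplets, and 3180 and 4920 rods. Light damage droplets were deeper: the median was 2635 against 6001 unique molecular identifiers (UMIs, single captured RNA molecules) in RPE-like, 2407.5 against 22229 in Müller-like, 2983.5 against 9393.5 in microglia-like droplets and 2906 against 4403.5 in rods. Parts of the Müller cluster rich in rod markers were left out as mixed, 14 of its 54 control and 75 of its 101 light damage droplets. The Müller-like droplets kept from the 2 libraries lay in separate parts of their cluster. Of the light damage RPE-like droplets, 63 and 49 formed parts without a control droplet. Rods fell into droplets with few and droplets with many unspliced UMIs, and the second kind made up 731 control and 3137 light damage rods. Xist, transcribed from the inactive X chromosome, stood at 1551 CPM in these control rods and at 0.177 CPM in those after light damage, so sex differed between the pools and cannot be told apart from the treatment.

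Values are spliced plus ambiguous UMIs as counts per 1000000 UMIs of the class (CPM), with 95% intervals that cover counting error only. RNA released from broken cells enters droplets of every class, and its profile was taken from barcodes under 50 UMIs. By the UMIs of genes from other cell types, it was estimated to make up 8.76% and 5.23% of the UMIs of control and light damage RPE-like droplets, 17.1% and 5.37% of Müller-like, 57.6% and 6.60% of microglia-like droplets, and 1.21% and 0.881% of rods. The control microglia-like class was the smallest, with 32726 UMIs in all.

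In RPE-like droplets none of the 5 measured members, those with at least 20 UMIs over both libraries, was 2-fold higher or lower after light damage, and their median log2 ratio was -0.41. Of all 8887 genes measured in this class, 13% were at least 2-fold higher and 6.64% at least 2-fold lower, with a median log2 ratio of 0.04. In Müller-like droplets 3 of 5 measured members, Axl, Pros1 and Itgav, were at least 2-fold higher and none was 2-fold lower, against 25.9% and 17% of 4337 genes. The median of these 5 members was 1.33, beside 0.08 over all genes measured. In microglia-like droplets Gas6 and Mfge8 were at least 2-fold lower and none of the 6 measured members was 2-fold higher, against 14.7% and 23.8% of 3661 genes. In rods Pros1 and Itgav were at least 2-fold higher and none of 5 members was 2-fold lower, against 28.7% and 2.24% of 12502 genes, and the median log2 ratio was -0.05 for the members and 0.59 for all genes.

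Ratios of a class depend on what they are scaled to. Among well-counted genes, with at least 50 UMIs in both libraries, the median log2 ratio was -0.11 in RPE-like, -0.66 in Müller-like and -0.52 in microglia-like droplets and 0.44 in rods, and 0.17 and 0.11 in rods with few and many unspliced UMIs. Relative to that median gene the members in RPE-like droplets stood at -0.42 for Mertk, -0.40 for Itgav and -0.30 for Itgb5. In Müller-like droplets they stood at 2.57 as a bound for Axl, 2.34 for Pros1, 1.99 for Itgav, 1.23 for Mertk and -0.27 for Mfge8. In rods they stood at 1.76 for Pros1, 0.99 for Itgav and -1.06 for Gas6. In microglia-like droplets they stood at 1.46 for Pros1 and, as a bound, 1.21 for Mertk, and Gas6 at -0.55 was no longer past 2-fold. Mertk in Müller-like droplets, Mertk and Pros1 in microglia-like droplets and Gas6 in rods thus passed 2-fold on this scale but not as CPM, and Itgav in rods fell just short of it.

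**Figure D1:**
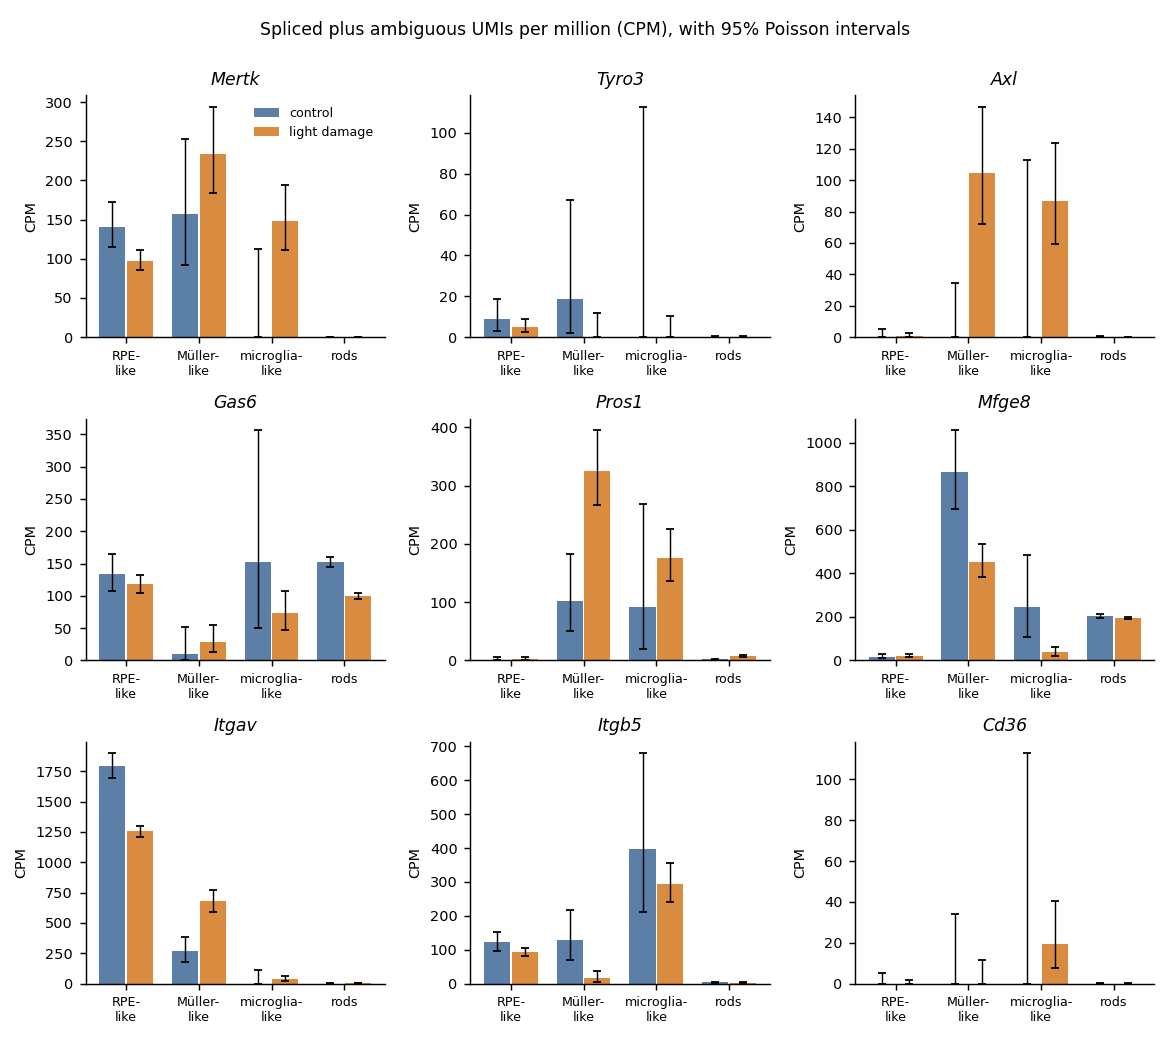
Level of each gene in CPM (vertical axes, from 0 and scaled to each gene) in the 4 classes of the control library (blue) and the light damage library (orange); error bars are 95% Poisson intervals and cover counting error only. Itgav stood highest in RPE-like, Mfge8 in Müller-like and Itgb5 in microglia-like droplets, and Axl appeared in Müller-like and microglia-like droplets of the light damage library.

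Mertk (ENSMUSG00000014361; GRCm38 chr2:128698956-128802894, plus strand) is the receptor kinase without which RPE cells fail to ingest outer segments. In RPE-like droplets it gave 98 UMIs in the control library (141 CPM, 115 to 172) and 231 after light damage (97.8 CPM, 85.6 to 111). The log2 ratio was -0.53 (-0.88 to -0.17), a lower level of less than 2-fold. A Mertk UMI was found in 33.3% of control and 37.4% of light damage RPE-like droplets and, after each droplet had been thinned to 1464 UMIs, in 14.9% and 11.1%. The order of the libraries thus turned with thinning. Rods, which lack the receptor, showed a Mertk UMI in 0.031% and 0.061% of droplets.

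Müller-like droplets held Mertk at 158 CPM (91.9 to 253, 17 UMIs) in the control and 234 CPM (184 to 294, 74 UMIs) after light damage, with a log2 ratio of 0.57 (-0.20 to 1.42) that includes no difference. It was 1.05 with classes named droplet by droplet and -0.12 with the mixed droplets of the cluster kept. In the control library the Müller-like and RPE-like levels could not be ordered, the log2 ratio between them being 0.16 (-0.68 to 0.91). After light damage Müller-like droplets exceeded microglia-like droplets by 0.66 (0.13 to 1.19) and microglia-like exceeded RPE-like droplets by 0.60 (0.14 to 1.04) on the log2 scale. Mertk in microglia-like droplets gave 53 UMIs after light damage (149 CPM, 111 to 194) and none among 32726 control UMIs, which allows up to 91.7 CPM. The light damage level was thus 1.62-fold that allowance, and the interval of the log2 ratio began at 0.35. Without the droplet that held most Mertk UMIs the log2 ratio to the allowance was 0.25, and its interval began at -0.11. With a minimum of 1000 UMIs per droplet the log2 ratio was -0.06, so no direction can be given for microglia-like droplets.

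Most Mertk molecules outside the RPE were unspliced. In Müller-like droplets 82.7% (73.7 to 89.6) of all Mertk UMIs were unspliced among control and 76.0% (70.8 to 80.6) among light damage droplets. Control microglia-like droplets held 10 unspliced Mertk UMIs, although none was counted there. After light damage 201 unspliced UMIs stood beside the 53 counted in microglia-like droplets, a share of 79.1% (73.6 to 84.0). In RPE-like droplets the shares were 2.97% (0.617 to 8.44) and 2.12% (0.691 to 4.87). The classes differed in the same direction over all genes, with 54.0% and 51.1% unspliced UMIs in Müller-like, 25.6% and 34.6% in microglia-like and 4.77% and 4.89% in RPE-like droplets. The Mertk share lay above the class-wide share in Müller-like and microglia-like droplets of both libraries and its interval included it or lay just below it in RPE-like droplets.

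Tyro3 (ENSMUSG00000027298; chr2:119797733-119818104, plus strand) and Axl (ENSMUSG00000002602; chr7:25757273-25788705, minus strand) encode the other kinases of the family. Tyro3 was scarce everywhere: RPE-like droplets held 6 UMIs in the control (8.64 CPM, 3.17 to 18.8) and 12 after light damage (5.08 CPM, 2.62 to 8.87), Müller-like droplets 2 and 0, and all rods 1 UMI in each library. These counts allow no statement on light damage.

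Axl was seen in light damage Müller-like droplets, with 33 UMIs (104 CPM, 71.9 to 147) in 11 of 26 droplets and no droplet holding more than 6. None was seen among 107755 UMIs of control Müller-like droplets, taken to allow 27.8 CPM. The level after light damage was 3.75-fold that allowance, and the interval of the log2 ratio began at 1.53. The unspliced UMIs showed the same, with 0 in the control and 82 after light damage. Of the 11 Axl-positive droplets, 10 also held Mertk, which 20 of the 26 droplets held. Microglia-like droplets gave 31 Axl UMIs after light damage (86.9 CPM, 59.0 to 123) in 14 of 40 droplets, but the absence from the 12 control droplets allows up to 91.7 CPM and no difference could be detected at this depth. In RPE-like droplets Axl gave 0 and 1 UMIs, and in rods 1 and 0. Thinned to 1464 UMIs, 6.54% of light damage Müller-like and 7.38% of microglia-like droplets would hold an Axl UMI, against 0.0227% of RPE-like droplets. Of the 4 classes the Müller-like droplets differed most in depth between libraries. Rod markers took 147.6 of 10000 UMIs in control and 44.6 in light damage Müller-like droplets, Müller markers 201.8 and 200.9, and astrocyte markers 0.371 and 4.30; their part in the Axl result was not tested.

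Gas6 (ENSMUSG00000031451; chr8:13465374-13494490, minus strand), the ligand that binds all 3 kinases, was found in photoreceptors and RPE. Rods carried 89.1% of all Gas6 UMIs in kept control droplets and 78.9% after light damage. Their level was 153 CPM (145 to 161, 1502 UMIs) in the control and 99.6 CPM (94.95 to 104, 1734 UMIs) after light damage, a log2 ratio of -0.62 (-0.72 to -0.52). Free RNA accounted for an expected 14.1 and 14.5 of these UMIs. The lower level after light damage held in both kinds of rods: it went from 154 to 124 CPM in rods with few unspliced UMIs, with a log2 ratio of -0.31 (-0.44 to -0.18), and from 150.1 to 86.3 CPM in rods with many, with a ratio of -0.80 (-0.98 to -0.62). None of these passed 2-fold except for all rods after centring on the median gene, which gave -1.06. RPE-like droplets held 134 CPM (108 to 164) and 118 CPM (104 to 132), with a ratio of -0.19 (-0.53 to 0.17) that includes no difference. In the control library rods, microglia-like and RPE-like droplets could not be ordered in Gas6, whereas after light damage RPE-like droplets exceeded rods by a log2 of 0.24 (0.05 to 0.42).

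In microglia-like droplets Gas6 gave 5 control UMIs (153 CPM, 49.6 to 357) and 26 after light damage (72.9 CPM, 47.6 to 107). The log2 ratio of -1.07 (-2.47 to 0.67) includes no difference, and 2.25 of the 5 control UMIs were expected from free RNA. Without the droplet of most Gas6 UMIs the ratio was -0.20. Müller-like droplets held 1 and 9 Gas6 UMIs.

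Pros1 (ENSMUSG00000022912; chr16:62854307-62929346, plus strand), which encodes protein S, had a higher CPM in Müller-like and microglia-like droplets than in RPE-like droplets and rods. Müller-like droplets gave 11 UMIs in the control (102 CPM, 51.0 to 183) and 103 UMIs after light damage (326 CPM, 266 to 395), a log2 ratio of 1.68 (0.78 to 2.72). A Pros1 UMI was present in 12.5% of control and 92.3% of light damage Müller-like droplets, and in 5.55% and 21.4% after thinning. The ratio was no longer past 2-fold with the mixed droplets of the Müller cluster kept, at 0.79, or with unspliced UMIs added, at 0.95. Microglia-like droplets held 3 and 63 UMIs (91.7 and 177 CPM), with a ratio of 0.95 (-0.67 to 3.26) that turned to -1.48 with a minimum of 1000 UMIs per droplet, and RPE-like droplets 0 and 6. Müller-like and microglia-like levels could not be ordered in the control library, and Müller-like droplets were higher by a log2 of 0.88 (0.42 to 1.36) after light damage.

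In rods Pros1 was far lower than in glia but differed between the libraries in the same direction. The control rods held 17 UMIs (1.73 CPM, 1.01 to 2.77) and the light damage rods 138 (7.93 CPM, 6.66 to 9.36), with a log2 ratio of 2.19 (1.46 to 3.02); 0.377 and 1.502 UMIs were expected from free RNA. The ratio was 1.96 (0.95 to 3.09) in rods with few and 1.82 (0.65 to 3.30) in rods with many unspliced UMIs, where 5.27% and 11.9% of all genes were at least 2-fold higher and 1.38% and 3.43% at least 2-fold lower. Of 5 measured members in each, Pros1 was past 2-fold in the former, Pros1 and Itgav were in the latter, and none was 2-fold lower. Itgav in rods with many unspliced UMIs rested on 3 and 49 UMIs, and its ratio of 1.75 was 0.34 with a minimum of 1000 UMIs per droplet. Unspliced Pros1 UMIs were more numerous than the counted ones in rods, 44 in the control and 974 after light damage. Of these, 34 and 969 lay in rods with many unspliced UMIs.

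**Figure D2:**
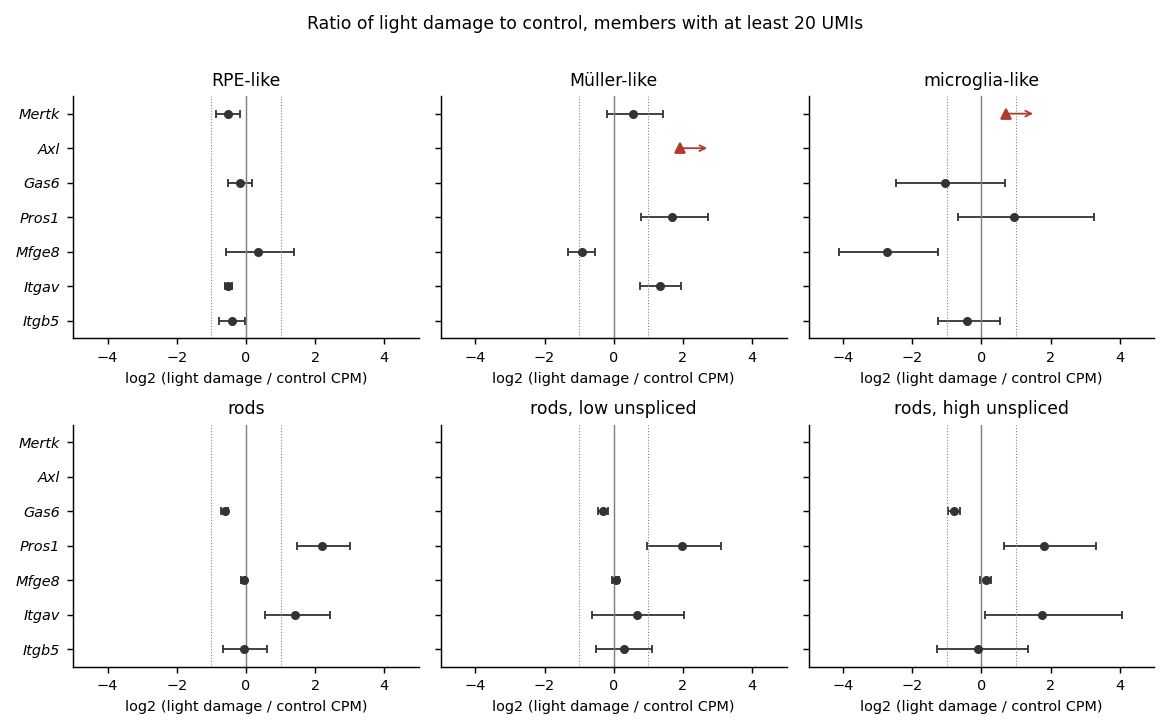
Log2 ratio of light damage to control CPM (horizontal axes) of members with at least 20 UMIs over both libraries in each class, with 95% exact conditional intervals; red triangles with arrows are lower bounds where the control held no UMI, and dotted lines mark 2-fold. Pros1 stood right of 0 in Müller-like droplets and in both kinds of rods, Gas6 left of 0 in both kinds of rods, and Itgav left of 0 in RPE-like and right of 0 in Müller-like droplets.

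Mfge8 (ENSMUSG00000030605; chr7:79133768-79149060, minus strand), the bridge to αvβ5, was highest in Müller-like droplets, at 863 CPM (697 to 1057, 93 UMIs) in the control and 453 CPM (381 to 533, 143 UMIs) after light damage. The log2 ratio of -0.93 (-1.32 to -0.54) lay just short of 2-fold, and it was -0.27 after centring on the median gene, which itself stood at -0.66 in this class, and -0.18 with classes named droplet by droplet. Rods held 204 CPM (196 to 214) and 195 CPM (188 to 201), a ratio of -0.07 (-0.15 to 0.01). Müller-like droplets exceeded rods by a log2 of 1.22 (0.97 to 1.46) after light damage. In 207 and 103 cone-like droplets Mfge8 stood at 225 CPM (192 to 262) and 356 CPM (325 to 390), a ratio of 0.67 (0.41 to 0.93). Of 3 members measured in cone-like droplets only Itgav was at least 2-fold lower and none 2-fold higher, against 4.86% and 19% of all genes, and 11 of its 16 control UMIs came from 1 droplet.

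RPE-like droplets held the least Mfge8. They gave 12 UMIs in the control, where 11.3 were expected from free RNA, and 52 after light damage, where 34.2 were expected, and the ratio was 0.35 (-0.58 to 1.39). By this estimate the control count in RPE-like droplets is no more than background. In microglia-like droplets Mfge8 gave 8 control UMIs (244 CPM, 106 to 482) with 3.50 expected from free RNA and 13 UMIs (36.4 CPM, 19.4 to 62.3) after light damage with 6.51 expected. The log2 ratio was -2.75 (-4.13 to -1.27), alongside the free RNA share of 57.6% against 6.60% in this class. Without droplets of at least 50% free RNA, 1 member was 2-fold lower in microglia-like droplets, Gas6 at -1.49 (-3.20 to 0.88). For Mfge8 no ratio was available without those droplets or with expected free RNA subtracted. Whether its lower level holds without free RNA could thus not be checked. Under the 8 processing alternatives that gave a ratio for Mfge8 in microglia-like droplets, it ran from -3.04 to -2.23.

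**Figure D3:**
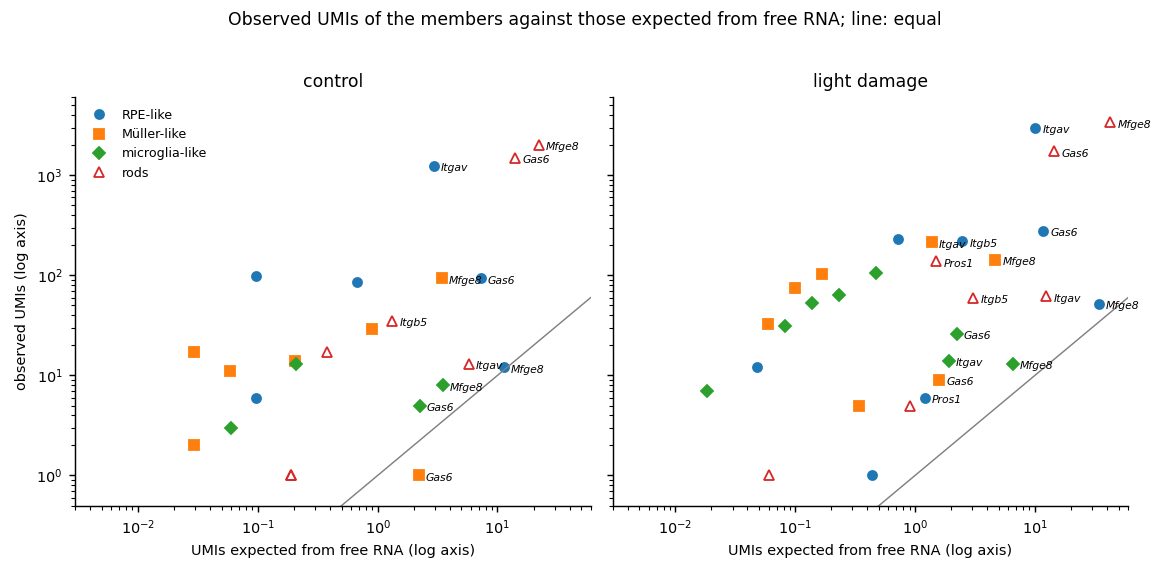
Observed UMIs of each member (vertical log axis) against the UMIs expected from free RNA (horizontal log axis) in each class, with a panel for each library; the line marks equal numbers and genes at 0 on either axis are not drawn. Mfge8 in control RPE-like droplets lay on the line, with 12 observed and 11.3 expected UMIs, whereas Itgav in RPE-like droplets and Gas6 and Mfge8 in rods lay far above it.

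Itgav (ENSMUSG00000027087; chr2:83724397-83806916, plus strand) encodes the αv subunit and was the most abundant member in RPE-like droplets by UMIs, with 1246 in the control (1795 CPM, 1696 to 1897) and 2968 after light damage (1256 CPM, 1211 to 1302). RPE-like droplets carried 94.7% of the Itgav UMIs of kept control droplets and 90.2% of those after light damage. The log2 ratio of -0.51 (-0.61 to -0.42) was a lower level by less than 2-fold, and it ran from -0.61 to -0.40 over the processing alternatives. An Itgav UMI was found in 82.4% and 93.9% of RPE-like droplets, in 72.9% and 74.1% after thinning, and in 0.346% and 1.08% of rods. Of all its UMIs in RPE-like droplets 0.160% and 0.202% were unspliced.

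Müller-like droplets held Itgav at 269 CPM (180.2 to 387, 29 UMIs) in the control and 677 CPM (590 to 774, 214 UMIs) after light damage. The log2 ratio was 1.33 (0.77 to 1.94), which fell to 0.48 (-0.05 to 1.05) when the mixed droplets of the cluster were kept. Unspliced UMIs numbered 37 and 284, or 56.1% and 57.0% of the gene's UMIs. RPE-like droplets exceeded Müller-like droplets by a log2 of 2.74 (2.21 to 3.32) in the control and 0.89 (0.69 to 1.098) after light damage. Rods gave 13 and 62 UMIs, with a ratio of 1.43 (0.55 to 2.41), where 5.74 and 12.5 UMIs were expected from free RNA. In rods with few unspliced UMIs the ratio was 0.67 (-0.63 to 2.02) from 10 and 13 UMIs.

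Itgb5 (ENSMUSG00000022817; chr16:33829665-33949338, plus strand) encodes the β5 subunit, which pairs with αv alone. In RPE-like droplets it stood at 122 CPM (97.8 to 151, 85 UMIs) in control and 92.3 CPM (80.4 to 105, 218 UMIs) in light damage cells, with a log2 ratio of -0.41 (-0.78 to -0.03). Itgav was present in 39 of the 39 control and 115 of the 119 light damage RPE-like droplets that held Itgb5. The level was higher in microglia-like droplets, at 397 CPM (212 to 679, 13 UMIs) and 294 CPM (241 to 356, 105 UMIs), a ratio of -0.43 (-1.27 to 0.52). Microglia-like droplets exceeded the next class by a log2 of 1.61 (0.40 to 2.81) in the control and 1.67 (1.32 to 2.02) after light damage. In Müller-like droplets 14 and 5 UMIs (130 and 15.8 CPM) fell short of the 20 UMIs needed for a call, with a ratio of -3.04 (-4.86 to -1.48). The unspliced Itgb5 UMIs there numbered 25 and 29, of 126616 and 330000 unspliced UMIs in the class. The ratios of the 2 subunits thus had opposite signs there. Rods stood at 3.56 and 3.45 CPM.

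Cd36 (ENSMUSG00000002944; chr5:17781690-17888801, minus strand) was not seen in the RPE: a count of 0 in RPE-like droplets sets a limit of 4.32 CPM for the control and 1.27 CPM for the light damage library. It was found in 4 of 40 light damage microglia-like droplets with 7 UMIs (19.6 CPM, 7.89 to 40.4), beside 8 unspliced UMIs, and in none of the 12 control droplets. Rods held no counted UMI and 4 and 13 unspliced ones.

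**Figure D4:**
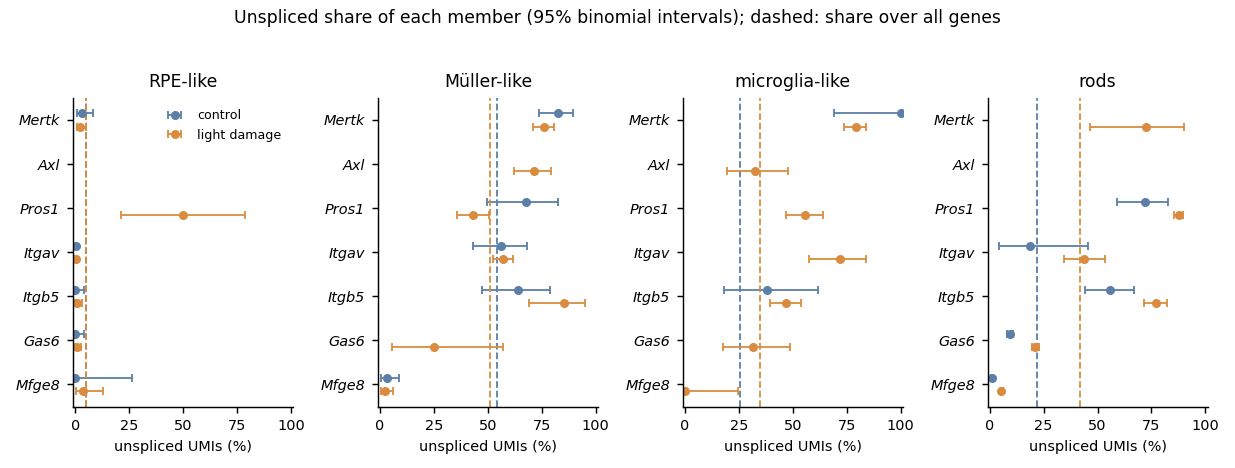
Unspliced UMIs as a percentage of all UMIs of a gene (horizontal axes) in each class and library, for genes with at least 10 UMIs there, with 95% exact binomial intervals; dashed lines give the share over all genes of the class. Mertk in Müller-like and microglia-like droplets lay right of the dashed lines, at 76.0% to 82.7% in Müller-like droplets, and Mfge8 lay left of them there and in rods.

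Among the ligands the unspliced share separated Pros1 from Mfge8 in the same droplets. In Müller-like droplets 67.6% (49.5 to 82.6) and 43.1% (35.8 to 50.6) of Pros1 UMIs were unspliced, against 3.13% (0.649 to 8.86) and 2.05% (0.426 to 5.89) of Mfge8 UMIs. In rods with many unspliced UMIs the shares after light damage were 90.4% (88.5 to 92.1) for Pros1, 32.2% (29.8 to 34.7) for Gas6 and 8.51% (7.37 to 9.76) for Mfge8. The genes span 75.0, 29.1 and 15.3 kb of the genome, in the same order. That order did not hold for the longer Itgb5 (119.7 kb), Mertk (103.9 kb) and Itgav (82.5 kb). Their shares in the same rods were 86.2%, 84.6% and 48.4%, all below that of Pros1, and Mertk rested on 2 counted and 11 unspliced UMIs. A link between share and length was not tested.

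The promoters of Pros1, Axl and Itgav are shown because these were the members at least 2-fold higher in Müller-like droplets. Each is the stretch of 250 bases before the RefSeq start site (GRCm38.p6), 5′ to 3′ on the strand of the gene, from chr16:62854057-62854306 (plus), chr7:25788734-25788983 (minus) and chr2:83724147-83724396 (plus). Capitals mark the letters TTCCNGGAA, the form bound by STAT factors, and GGGCGG, the GC box, on either strand.
Pros1: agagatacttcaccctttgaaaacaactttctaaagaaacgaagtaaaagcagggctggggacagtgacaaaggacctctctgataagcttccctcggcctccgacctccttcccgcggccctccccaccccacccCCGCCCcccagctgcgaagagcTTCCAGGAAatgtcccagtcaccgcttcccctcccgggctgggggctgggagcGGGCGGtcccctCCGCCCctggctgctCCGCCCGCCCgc
Axl: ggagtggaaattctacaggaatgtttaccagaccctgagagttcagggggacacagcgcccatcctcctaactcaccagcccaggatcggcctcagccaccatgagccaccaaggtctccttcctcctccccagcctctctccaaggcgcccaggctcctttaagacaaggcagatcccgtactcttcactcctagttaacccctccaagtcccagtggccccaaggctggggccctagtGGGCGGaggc
Itgav: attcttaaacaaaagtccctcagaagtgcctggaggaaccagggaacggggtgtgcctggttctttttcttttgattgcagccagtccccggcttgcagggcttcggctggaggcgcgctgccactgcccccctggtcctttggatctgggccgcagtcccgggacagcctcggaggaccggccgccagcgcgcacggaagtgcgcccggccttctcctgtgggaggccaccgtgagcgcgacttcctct
Of 9 motifs searched on both strands, TTCCNGGAA was found in 1 of the 9 member promoters, that of Pros1, as TTCCAGGAA starting 92 bases before the start site, and in 0.913% of 32851 mouse promoters. The wider form TTCNNNGAA, which overlaps it, was found in the same member alone and in 7.02% of promoters. GGGCGG was found in 8 members, Itgav being the exception, and in 32.7% of promoters. TGANTCA (AP-1), TGACGTCA (the cAMP response element) and TTGCNNAA (C/EBP) were found in no member and in 6.75%, 1.55% and 9.56% of promoters, GGAATG (TEAD) in Axl and in 12.6%. The NF-κB motif was found in all 9 members and in 45.8% of promoters, and CANNTG (E-box) in 5 and in 66.2%. These are matches of letters and not measured binding.

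Around these receptors 89 further genes of uptake were followed in 8 lists. Of 68 measured in RPE-like droplets 9 were at least 2-fold higher and 3 at least 2-fold lower after light damage, shares near those of all genes in this class. Ordered by the interval end nearest 0, which favours well-counted genes over large ratios, the first 4 upward were Rhbdf2, a partner of the sheddase ADAM17 that cleaves MERTK, with 2 and 47 UMIs and a log2 ratio of 2.79 (0.85 to 5.88), the adaptor Bcar1 (33.1 and 83.4 CPM, 1.33), the lysosomal receptor Scarb2 (49.0 and 110.5 CPM, 1.17) and the proton pump subunit Atp6v0a1 (268 and 487 CPM, 0.86). The first 4 downward were the engulfment adaptor Gulp1 (135 and 54.2 CPM, -1.32), the MERTK ligand Tulp1 (228 and 119 CPM, -0.94), the protease Adam9 (125 and 65.6 CPM, -0.93) and Thbs1, which encodes thrombospondin 1 (1665 and 1104 CPM, -0.59). Tulp1 is also a photoreceptor gene, and rod markers took 66.3 and 36.2 of 10000 UMIs in RPE-like droplets; their part in its ratio was not tested. Among the partners of αv, Itgb8 stood at 4095 and 3088 CPM in RPE-like droplets, with a ratio of -0.41 (-0.47 to -0.34), close to the ratios of Itgav and Itgb5. Adam17 itself gave 0.20 (-0.51 to 0.96).

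In Müller-like droplets 20 of 56 measured genes of the lists were at least 2-fold higher and 6 at least 2-fold lower, where 25.9% and 17% of all genes were. The list of signalling and cytoskeleton of uptake held 10 of the 20 among its 17 measured genes, Bcar1, Dock1, Vav3, Cdc42, Pik3r1, Ezr, Anxa2, Myh9, Arpc2 and Pxn, with 1 lower, Elmo2, and a median log2 ratio of 1.29. Timp1, an inhibitor of metalloproteases, gave 0 and 120 UMIs, 13.6-fold the level of the 3 UMIs that a count of 0 was taken to allow. The exchange factor Vav3 gave 0 and 46, or 5.23-fold. The intervals of their log2 ratios began at 3.45 and 2.03. Of the integrin partners Itgb1 (167 and 370.3 CPM, 1.15) and Itgb8 (121 and 709 CPM, 2.55) were higher, as was Itgav. The first 2 downward by the interval end nearest 0 were Vtn, which encodes vitronectin, a ligand of αvβ5 (204 and 31.7 CPM, -2.69), and Cd47, the signal that inhibits engulfment (380.5 and 91.8 CPM, -2.05). Vtn is abundant in rods, where it gave 14793 and 15821 UMIs, and rod markers in Müller-like droplets differed between libraries as given for Axl.

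In microglia-like droplets 21 of 46 measured genes of the lists were at least 2-fold higher and 7 lower, where 23.8% and 14.7% of all genes were. The lysosomal protease Ctsb gave 9 and 1353 UMIs (275 and 3792 CPM), a log2 ratio of 3.79 (2.86 to 4.92). The scavenger receptor Msr1 gave 0 and 132 UMIs, 4.04-fold the level that a count of 0 was taken to allow. The interval of its log2 ratio began at 1.69. Vtn (733 and 64.5 CPM, -3.51) and Tulp1 (611 and 227 CPM, -1.43), both rod transcripts, were lower alongside rod markers, which took 448.6 and 48.5 of 10000 UMIs. Free RNA was estimated at 57.6% of control and 6.60% of light damage UMIs in this class. Its part in the ratios of the higher and the lower genes was not tested.

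In rods 18 of 63 measured genes of the lists were at least 2-fold higher, where 28.7% of all genes were, and none 2-fold lower, and the first 2 in the same order were Atg16l1 of LC3 lipidation (47.2 and 163 CPM, 1.79) and the MERTK ligand Tub (140.4 and 394 CPM, 1.49). Within rods of few and of many unspliced UMIs the counts were 6 of 54 and 6 of 61, where 5.27% and 11.9% of all genes were at least 2-fold higher. Neither Atg16l1 nor Tub was among them. Rods with many unspliced UMIs made up 731 of 3180 control and 3137 of 4920 light damage rods. The part of this difference in the ratios over all rods was not tested. The first 2 downward by the interval end nearest 0 were Vtn, with 1506 and 909 CPM (-0.73), and the chaperone Calr, an eat-me signal when exposed (462 and 330 CPM, -0.49).

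**Figure D5:**
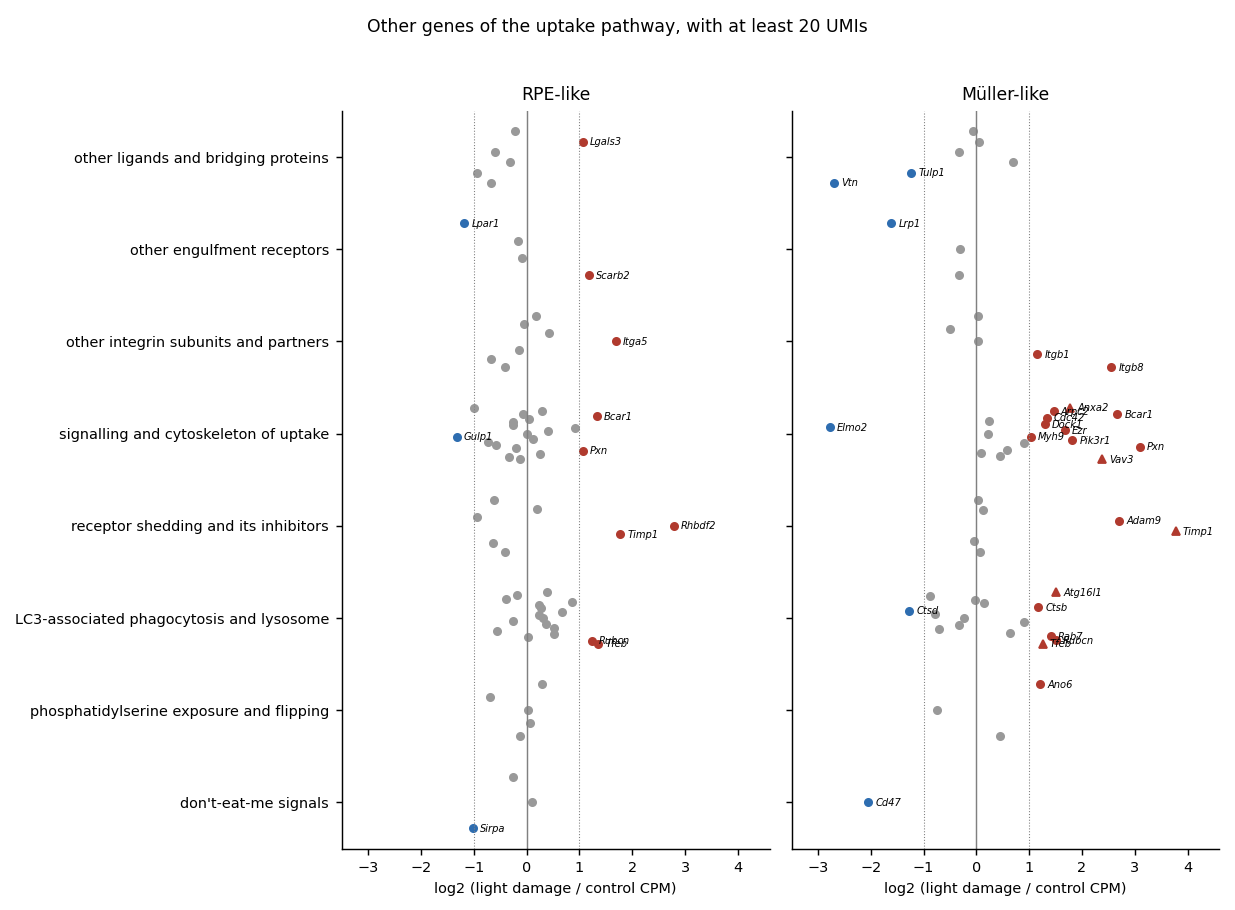
Log2 ratio of light damage to control CPM (horizontal axis) of the measured genes of each uptake list in RPE-like and Müller-like droplets; red and blue points are at least 2-fold higher and lower, triangles are lower bounds, and dotted lines mark 2-fold. In Müller-like droplets 10 of 17 genes of signalling and cytoskeleton lay right of the upper line, and in RPE-like droplets 2 of 19.

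Over the summed UMIs of 12 pairs of class and library, the genes whose log2(CPM + 10) followed a member most closely were named by Pearson correlation, as a description. For Itgav, the receptor with most UMIs, they were Dlgap1 (0.96), S100a1 (0.96) and Fads1 (0.96), and for Mfge8, the ligand with most UMIs, Elmod1 (0.97), Dnmt1 (0.94) and Rtn4 (0.94). The sums share 2 libraries and their depth differences.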

How the data were processed

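The authors demultiplexed reads with Cell Ranger 7.0.1, mapped them in forward orientation to spliced transcripts and introns of mm10 with Salmon 1.10.1 and resolved UMIs with alevin-fry 0.8.1. The deposited counts are whole UMI counts per barcode and gene in spliced, unspliced and ambiguous blocks, before any filter of empty droplets, doublets or free RNA. Ensembl IDs were named by GENCODE vM21 (32235 of 32285). The members and lists were chosen with earlier results of these data known. All 9 members were to be named, and of 89 listed genes the 4 with the largest rise and fall in RPE-like droplets and 2 in other classes, by the interval end nearest 0.

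Droplets with at least 1464 (control) or 1614 (light damage) UMIs, the inflection of the rank curve, and under 10% mitochondrial UMIs were kept. The top 0.8% per 1000 droplets by Scrublet score were left out as doublets (114 and 276), since its automatic threshold called 1 and 0, which left 3669 and 5593 droplets, of which 7 share a barcode. Counts scaled to 10000 were clustered with scanpy 1.11.5 (2000 variable genes, 50 components, Leiden resolution 1) without the 9 members and 89 listed genes. Clusters were named from markers, needing 3 detected in 10% of droplets. Parts of the Müller, microglia and RPE clusters whose rod markers exceeded their own markers more than 2-fold were left out, a rule set after seeing the data. It removed 14 control and 75 light damage droplets, all from the Müller cluster. Rod clusters were split at a median of 20% unspliced UMIs.

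For each class of a library UMIs were added up. Intervals (95%) are exact Poisson for CPM, exact binomial (Clopper-Pearson) for shares and exact conditional binomial for log2 ratios, and a count of 0 was taken to allow 3 UMIs. A ratio to such an allowance is called a bound and leaves out the counting error of the other library. A member was measured with at least 20 UMIs over both libraries. The ratios were tested on simulated data. Total UMIs per class, from 32726 in control microglia-like droplets to 17412499 in light damage rods, set the precision. Counting used the strand, and no other counted gene overlaps a member on its strand.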

Additional observations from a re-analysis of the deposited data

Results flagged for a closer look

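Itgav and Mfge8 had light damage to control ratios of opposite sign in different classes, with counting intervals that lay on either side of 0. With 1 library per condition the difference between classes was not tested. For Itgav the log2 ratio was 1.33 in Müller-like droplets and 1.43 in rods, against -0.51 in RPE-like and -1.43 in cone-like droplets, where 11 of the 16 control UMIs came from 1 droplet. For Mfge8 it was 0.67 in cone-like droplets, against -0.93 in Müller-like and -2.75 in microglia-like droplets. The Müller-like ratio of Mfge8 was -0.18 (-0.60 to 0.25) with classes named droplet by droplet and -0.27 after centring. Its microglia-like ratio rested on 8 and 13 UMIs, with 3.50 and 6.51 expected from free RNA. The ratio of Itgav was 0.67 (-0.63 to 2.02) in rods with few unspliced UMIs. In rods with many it was 1.75, and 0.34 with a minimum of 1000 UMIs per droplet. The Müller-like ratio of Itgav was 0.48 with the mixed droplets of the cluster kept, and its interval then included 0.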

How the results depend on the processing

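No paired analysis was possible because each condition is 1 library, and with 1 library per condition no replicate was left out. Under 14 processing alternatives, of which keeping the mixed droplets was chosen after seeing the data, 384 log2 ratios of members stayed within the counting interval of the reported value, 21 did not, and none past 2-fold as reported changed sign. Smaller ratios did change sign. Among them Pros1 in microglia-like droplets, 0.95 as reported, ran from -1.48 to 1.46. Mfge8 in RPE-like droplets ran from -0.46 to 0.78 and Mertk in Müller-like droplets from -0.12 to 1.23. Of the ratios past 2-fold upward, 107 of 112 alternative values were still past it, and of those downward 19 of 22. The count of members at least 2-fold higher in Müller-like droplets, 3 as reported, was 2 with unspliced UMIs added, with mixed droplets kept or with a minimum of 50 UMIs per gene, and 4 with classes named droplet by droplet, after centring or with no minimum of UMIs per gene. The count of lower members there, 0 as reported, was 1 with a minimum of 1000 UMIs per droplet, with expected free RNA subtracted, with unspliced UMIs added or with no minimum of UMIs per gene, and 2 with mixed droplets kept. In microglia-like droplets the count of higher members, 0 as reported, was 1 without droplets of at least 50% free RNA or without the droplet of most UMIs, and 2 with unspliced UMIs added or after centring on the median gene. The count of lower members in microglia-like droplets, 2 as reported, was 1 under a mitochondrial limit of 5%, with members in the clustering, without droplets of at least 50% free RNA, with unspliced UMIs added, after centring and without the droplet of most UMIs, 0 with a minimum of 50 UMIs per gene, and 3 with a minimum of 1000 UMIs per droplet. In rods centring gave 1 higher and 1 lower member in place of 2 and 0. The cause of these moves was not tested.

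Depth limits the glia most: a count of 0 allowed 91.7 CPM in control microglia-like and 27.8 CPM in control Müller-like droplets, against 4.32 CPM in RPE-like droplets. Tyro3, Cd36 and Axl in RPE-like droplets and rods were too scarce to compare. The intervals leave out variation between mice.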
